A study of Caenorhabditis elegans with 3 samples.

Results

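The acr and lgc genes of the nematode Caenorhabditis elegans encode subunits of ligand-gated ion channels, the receptors through which acetylcholine, monoamines and other small ligands open a pore in the cell membrane. They were taken by name, with earlier results of these data known. A probe counted where its annotation named exactly 1 gene, with a symbol made of acr or lgc and a number. This gave 60 probes for 59 genes, 18 acr and 41 lgc, of 14943 genes with such a probe. The RefSeq annotation (WBcel235) lists 77 genes with these symbols, and the other 18 were not analysed here. On each of 3 two-colour arrays, total RNA of L3 larvae of the genotype glp-4 (preps 1, 3 and 4) met a mixed reference RNA of the wild type, so genotype and stage differ together. The labels do not give the glp-4 allele, the growth temperature, what the reference pool mixed, or whether the preps were separate cultures. The p-values therefore rest on the variation among 3 preps and may reflect technical error alone.

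The deposited values are log2 ratios of the channels, and no label states their direction. Values above 0 were taken to mean more RNA in glp-4 L3, the likely direction, because germ line genes, known to be low in glp-4 mutants, then lie below the reference. Should the ratio run the other way, higher and lower would change places throughout and the counts and sizes would stand. Each array was centred on its median, so a value of 0 is that of the median probe. The number of arrays limits the precision, and without intensities, probes near background could not be told from brighter ones. In bulk RNA of whole animals, a difference in the number of cells that express a gene and a difference in RNA per cell cannot be told apart.

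The channels of this superfamily, named Cys-loop receptors after a conserved loop closed by cysteines, are built of subunits around a central pore that opens when a neurotransmitter binds outside the cell. Nicotinic acetylcholine receptors pass cations and excite muscles and neurons, and the nematode has an unusually large set of their subunit genes, to which the acr class belongs. The lgc class was named for homology to ligand-gated channels. It holds receptors opened by monoamines, GABA or acetylcholine, some passing cations and some anions, and many members with no known ligand.

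Few acr and lgc genes differed detectably from the reference. Of the 58 genes measured on all 3 arrays, only lgc-32 was higher and none was lower (limma, Benjamini-Hochberg adjusted over all 19580 features, threshold 0.05), which is 1.72% of them. Over all features, 16.6% passed, 8.26% higher and 8.37% lower. At an unadjusted limma p under 0.05, 7 of the 58 genes were higher (12.1%) and 0 lower, where 17.1% of all features were higher and 18.2% lower. The count changed with the preps used: 8 members were higher and 2 lower without prep 1, and none passed without prep 3 or without prep 4. Over all features, 34.0%, 1.96% and 6.30% passed without preps 1, 3 and 4. The member means ran from -0.67 to 1.38 on the log2 scale, with a median of 0.12 against a median of 0 for all features. The median size of the mean, without its sign, was 0.27 for the members and 0.39 for all features, and the median SD between arrays was 0.31 for both. For 43 of the 58 members (74.1%) the 95% interval of the mean from limma, not adjusted for multiple tests, lay within a 2-fold change in either direction, against 57.3% of all features. A change near 2-fold could still be missed: in data simulated for this comparison with 200 of 19580 features changed, the test found 1.87% of changes of 1 log2 unit and 72.7% of changes of 2 units. In the real data 3255 features passed, which makes the adjusted threshold less strict than in the simulation. The simulated shares therefore do not give the power of the test here.

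The gene that passed, lgc-32 (T19D7.1, on chromosome X), was at 0.41 with prep 1, 1.12 with prep 3 and 1.11 with prep 4. All 3 arrays were above the reference, with prep 1 the lowest. Its mean of 0.88 ± 0.41 (SD, n = 3) corresponds to 1.84-fold higher RNA in glp-4 L3, with a 95% interval from 0.34 to 1.42 (limma adjusted p = 0.0481). The call was lost without prep 3 (limma adjusted p = 0.295) and without prep 4 (0.197), settings in which 1.96% and 6.30% of all features passed. With each probe tested alone, lgc-32 just missed the threshold, at 0.0501. It passed without prep 1, where the adjusted p was 0.00918 and 34.0% of all features passed.

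**Figure D1:**
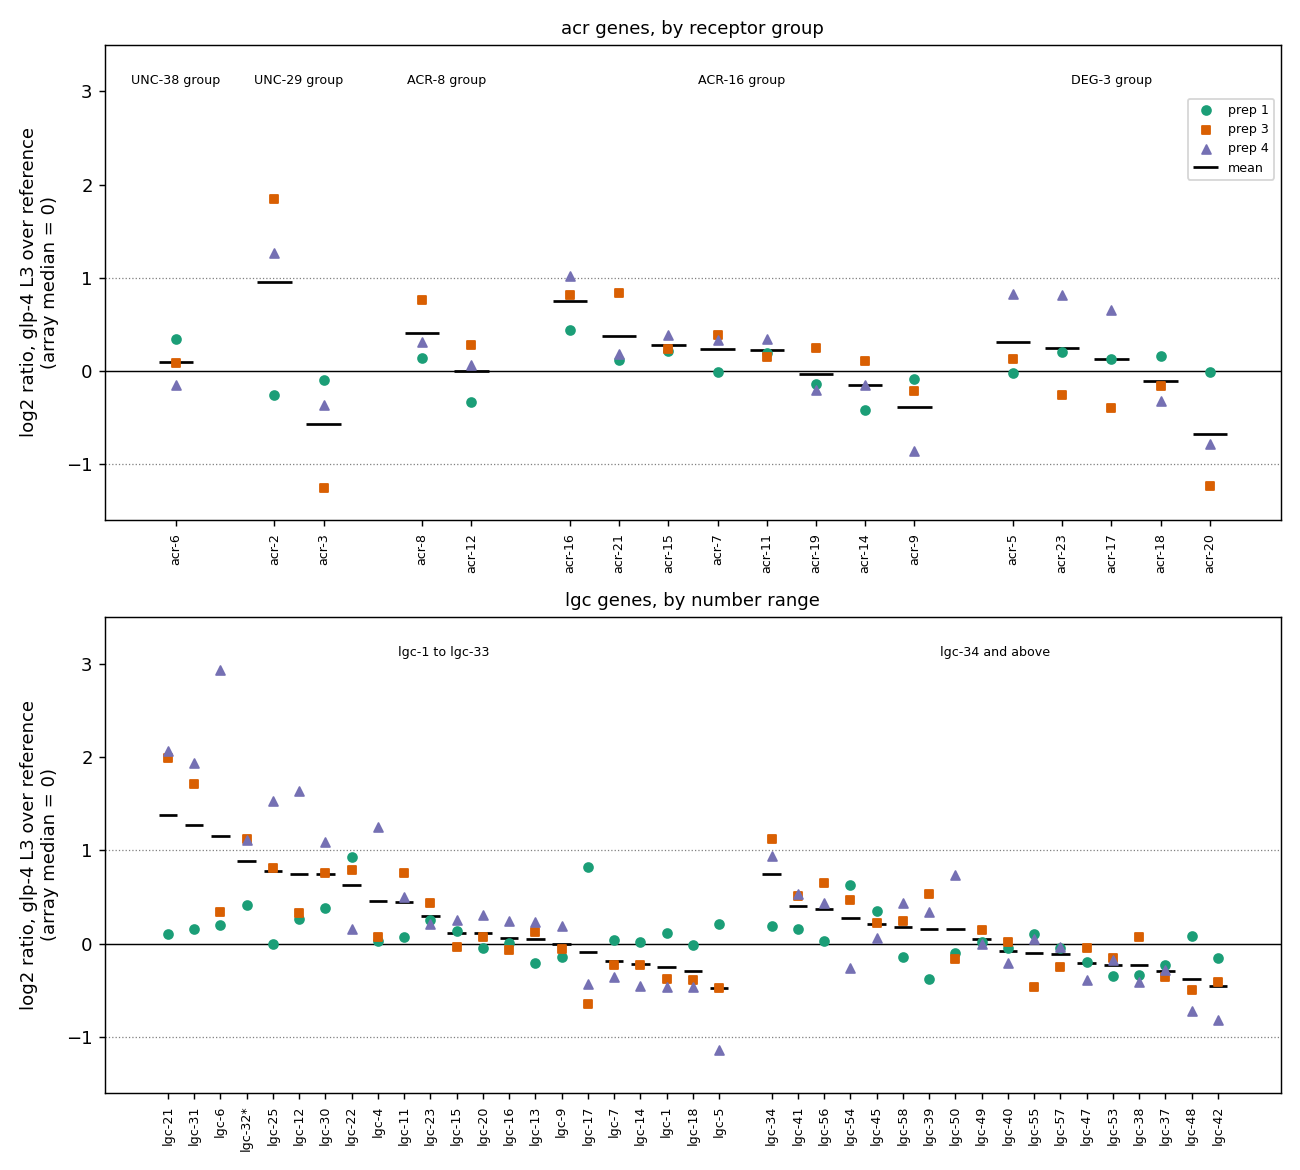
Log2 ratio of glp-4 L3 over the reference (vertical axis, array median at 0) for the 18 acr genes (top, by receptor group) and 40 lgc genes (bottom, by number range) measured on 3 arrays; symbols are preps, black bars their means, dotted lines a 2-fold change, and the asterisk marks lgc-32, which passed the threshold. Prep 1 (circles) stays within 2-fold for every gene, and the values that go beyond it belong to preps 3 and 4.

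The preps differed in how far the channel genes spread. With prep 1 the 58 values ran from -0.42 to 0.93, so that 0 of them reached a 2-fold difference, where 11.2% of all features did (5.49% above and 5.70% below). With prep 3 they ran from -1.25 to 1.98, and 7 genes (12.1%) reached 2-fold, against 20.4% of features. Of these 5 lay above the reference and 2 below it, where 10.2% and 10.3% of features did. With prep 4 they ran from -1.15 to 2.94, and 11 genes (19.0%) did so, against 26.8% of features. Of these 10 lay above and 1 below, where 14.0% and 12.8% of features did. The SD over the members was 0.26, 0.63 and 0.78 with preps 1, 3 and 4, and the SD over all features rose in the same order of arrays, at 0.70, 0.95 and 1.12. The member medians were 0.04, 0.12 and 0.20. By the letters in their titles, the arrays of preps 3 and 4 share a series that does not include prep 1. Within that series, without prep 1, 8 of 58 members were higher (13.8%) and 2 lower (3.45%), where 16.3% and 17.6% of all features were. Of the 58 genes, 19 lay above 0 on all arrays, 9 below 0 on all, and 29 changed sign between arrays. The other gene, lgc-25, was at 0 with prep 1 and above it with preps 3 and 4.

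Among the acr genes, none of 18 passed in either direction, and at an unadjusted limma p under 0.05 there was 1 higher gene and none lower, beside 17.1% and 18.2% of all features. Their median was 0.18 and their range -0.67 to 0.95. The exception at the unadjusted level, acr-16 (F25G6.3), encodes the subunit of the nicotine-sensitive, levamisole-insensitive acetylcholine receptor of body wall muscle. It was at 0.44 with prep 1, 0.81 with prep 3 and 1.02 with prep 4, above the reference on every array. Its mean of 0.76 ± 0.29 fell just short of the threshold (limma adjusted p = 0.0518), with a 95% interval from 0.28 to 1.23. It passed with arrays scaled to the same spread (adjusted p = 0.0399), with quantile normalization (0.0291), with a robust variance prior (0.0488) and without prep 1 (0.0179). RNA of body wall muscle markers was also above the reference: 13 of 19 measured genes of that list were higher and none lower, and the list median was 0.59, 1.22 and 1.34 with preps 1, 3 and 4. The higher count was 16 without prep 1, 2 without prep 3 and 4 without prep 4. Over all features, 8.26% were higher with all preps and 16.3% without prep 1. Without prep 3 and without prep 4, 1.96% and 6.30% of all features passed in either direction. The part of muscle RNA in the acr-16 value was not tested.

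The other members of the ACR-16 group, related to the vertebrate alpha-7 type of receptor, lay nearer to 0. The group had 8 measured acr genes with a median of 0.23. Its lowest was acr-9 (C40C9.2), at -0.08, -0.21 and -0.86 with preps 1, 3 and 4, a mean of -0.39 ± 0.42 with an interval from -0.93 to 0.16. The genes acr-11, acr-15 and acr-21 lay above 0 on all 3 arrays, with means of 0.23, 0.28 and 0.38, and acr-7, acr-14 and acr-19 changed sign between arrays. None of these 6 passed.

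The UNC-29 group held the widest disagreement within the acr class. Its measured acr genes, acr-2 and acr-3, encode subunits of a heteromeric acetylcholine receptor that sets the excitability of cholinergic motor neurons. The gene acr-2 (K11G12.2) was at -0.25 with prep 1, 1.84 with prep 3 and 1.26 with prep 4. Its partner acr-3 (K11G12.7) was at -0.10, -1.25 and -0.37. With preps 3 and 4 the partners thus lay on opposite sides of the reference, and with prep 1 both were slightly below it. The means were 0.95 ± 1.08 for acr-2 and -0.57 ± 0.61 for acr-3 (limma adjusted p = 0.166 and 0.187), and neither gene passed. Without prep 1, acr-2 was higher at a mean of 1.55 (limma adjusted p = 0.00638), where 34.0% of all features passed. Their companion subunit acr-12 (R01E6.4), of the ACR-8 group, acts in the receptors of both cholinergic and GABA motor neurons and was at -0.33, 0.28 and 0.06. Its mean was 0 ± 0.31, and its interval, -0.48 to 0.48, lay within a 2-fold change. In the same group acr-8 (ZC504.2), whose counterpart in the parasite Haemonchus contortus belongs to the levamisole receptor of muscle, was at 0.14, 0.76 and 0.32, above the reference on each array (mean 0.40 ± 0.32, adjusted p = 0.197). The only measured acr gene of the UNC-38 group of alpha subunits, acr-6 (ZK973.5), was at 0.34, 0.09 and -0.15, with a mean of 0.09 ± 0.25. The gene unc-38 itself, left out of the members by its name, was at 0.30, 0.07 and -0.37.

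The DEG-3 group, which includes receptors that choline or betaine opens, had 5 measured acr genes with a median of 0.13. At its lower end lay acr-20 (R06A4.10), whose channel the deworming drug monepantel can open, at 0 with prep 1, -1.23 with prep 3 and -0.78 with prep 4. This was the lowest mean of all 58 members, at -0.67 ± 0.62 (interval -1.35 to 0.01, limma adjusted p = 0.144). Without prep 1 acr-20 was lower at a mean of -1.0 (limma adjusted p = 0.0181), where 34.0% of all features passed. The betaine receptor gene acr-23 (F59B1.9), the main target of monepantel, did not share this pattern and was at 0.21, -0.26 and 0.81. The highest mean of the acr genes of this group was that of acr-5 (K03F8.2), a gene expressed in B-type motor neurons, at 0.31 ± 0.45. It is the only member with several probes, and they disagreed: with prep 4 the first read 2.13 and the second -0.48, so its mean describes neither.

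The lgc genes split by their numbers, which were taken here as a plain division of the class. The 22 measured genes from lgc-1 to lgc-33 had a median of 0.21, and 12 of them had an interval within 2-fold. The 18 from lgc-34 upward had a median of -0.01, and 17 had such an interval. In the first range 1 gene was higher, 0 were lower, and 5 of 22 were higher at an unadjusted limma p under 0.05. In the second range 0 passed and 1 of 18 was higher at that level, which 17.1% of all features reached on the higher side. No test of the difference between the ranges was made.

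The farthest lgc genes, chosen after their values were seen except for lgc-21, were near 0 with prep 1 and high in 1 or both of the others. For lgc-21 (C33G3.3), the highest mean of all members, the values with preps 1, 3 and 4 were 0.10, 1.98 and 2.06. The mean of 1.38 ± 1.11, or 2.60-fold, did not pass (interval 0.32 to 2.44, limma adjusted p = 0.0833). Preps 3 and 4 alone gave a mean of 2.02, or 4.06-fold higher (limma adjusted p = 0.00205, n = 2). Without prep 1, 34.0% of all features passed, and lgc-21 was named for a mean that includes these same values. Similarly, lgc-31 (F21A3.7) was at 0.15, 1.72 and 1.94 (mean 1.27 ± 0.97, adjusted p = 0.0786), and passed without prep 1 at a mean of 1.83. In both genes preps 3 and 4 lay close together and prep 1 stood apart. The third gene with a mean above 2-fold, lgc-6 (F17E9.8), differed from them in resting on prep 4: it was at 0.20, 0.34 and 2.94, a mean of 1.16 ± 1.54 whose interval, -0.27 to 2.58, includes 0. The other members higher without prep 1 were lgc-25, lgc-30 and lgc-34, beside acr-2, acr-16 and lgc-32 given above. At the lower end of the first range, lgc-5 (F17E9.7) was at 0.21, -0.48 and -1.15, a mean of -0.47 ± 0.68, and was lower without prep 1 at a mean of -0.81 (adjusted p = 0.047).

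From lgc-34 upward the values were flatter. The highest mean was that of lgc-34 itself (T27A1.4), at 0.19, 1.13 and 0.94, or 0.75 ± 0.50 (limma adjusted p = 0.0882). The lowest was that of lgc-42 (Y39A3B.2), at -0.15, -0.41 and -0.82, or -0.46 ± 0.34 (adjusted p = 0.163). Both kept their sign on every array. The remaining gene of the range, lgc-51 (F12B6.3), had a value with prep 1 only, -0.19, and was not tested.

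Some receptors whose ligand is known, added after values were seen, can be set beside the genes that make the ligand. The tyramine-gated chloride channel gene lgc-55 (Y113G7A.5) was at 0.10, -0.46 and 0.05, on either side of the reference. The tyrosine decarboxylase gene tdc-1, needed to make tyramine, was at -2.70, -1.68 and -2.19 and was lower (mean -2.19 ± 0.51, limma adjusted p = 0.00623). The ligand's enzyme gene was thus below the reference on every array while the receptor gene's interval, -0.59 to 0.38, lay within a 2-fold change. The gene tbh-1, of the wider list for making, moving and degrading ligands, was at -0.51, -3.16 and -3.31. It just missed the threshold (limma adjusted p = 0.051) and is not counted here among the genes that make tyramine. The amount of tyramine was not measured. The dopamine-gated chloride channel gene lgc-53 (T21F2.1) was at -0.34, -0.15 and -0.18 (interval -0.63 to 0.18), and cat-2, the tyrosine hydroxylase gene of dopamine synthesis, was at 0.10, 0 and 1.43. The serotonin-gated cation channel gene lgc-50 (T20B12.9) was at -0.10, -0.17 and 0.73, and tph-1, the tryptophan hydroxylase gene of serotonin synthesis, was at -0.07, 0.57 and 0.14. None of these 4 passed. The gene lgc-40 (T24D8.1), whose channel choline, acetylcholine and serotonin can open, stayed within 0.21 of the reference, at -0.04, 0.02 and -0.21. The GABA receptor-like genes lgc-37 (ZC482.5) and lgc-38 (F11H8.2) had means of -0.29 ± 0.07 and -0.23 ± 0.26, and unc-25, the glutamic acid decarboxylase gene of GABA synthesis, was at -0.58 ± 0.52. None passed, although lgc-37 was below the reference on each array, at -0.23, -0.36 and -0.29.

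Several members lie next to each other on a chromosome, which the choice by name did not use. In the RefSeq gene order, acr-2 and acr-3 are adjacent protein-coding genes on X, acr-15 and acr-16 on V, and lgc-6 and lgc-5 on IV, while lgc-13 to lgc-17 are consecutive on X with lgc-18 after 1 further gene. The members of a pair could lie far apart. The difference lgc-6 minus lgc-5 was -0.02, 0.82 and 4.08 with preps 1, 3 and 4, and acr-2 minus acr-3 was -0.16, 3.10 and 1.63. Both pairs were nearly level with prep 1 and apart with the others. For acr-15 minus acr-16 the difference was -0.22, -0.58 and -0.64, the same sign on all arrays. An exact sign-flip permutation test (two-sided) gave p = 0.5, 0.5 and 0.25 for the 3 pairs, where 0.25 is the smallest value that 3 arrays allow. The 6 genes from lgc-13 to lgc-18 had means from -0.29 to 0.12. The widest of them was lgc-17 (T01H10.6), at 0.82, -0.65 and -0.44, above the reference with prep 1 and below it with the others. Probes of neighbouring, related genes can share signal, and no probe sequence was used.

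**Figure D2:**
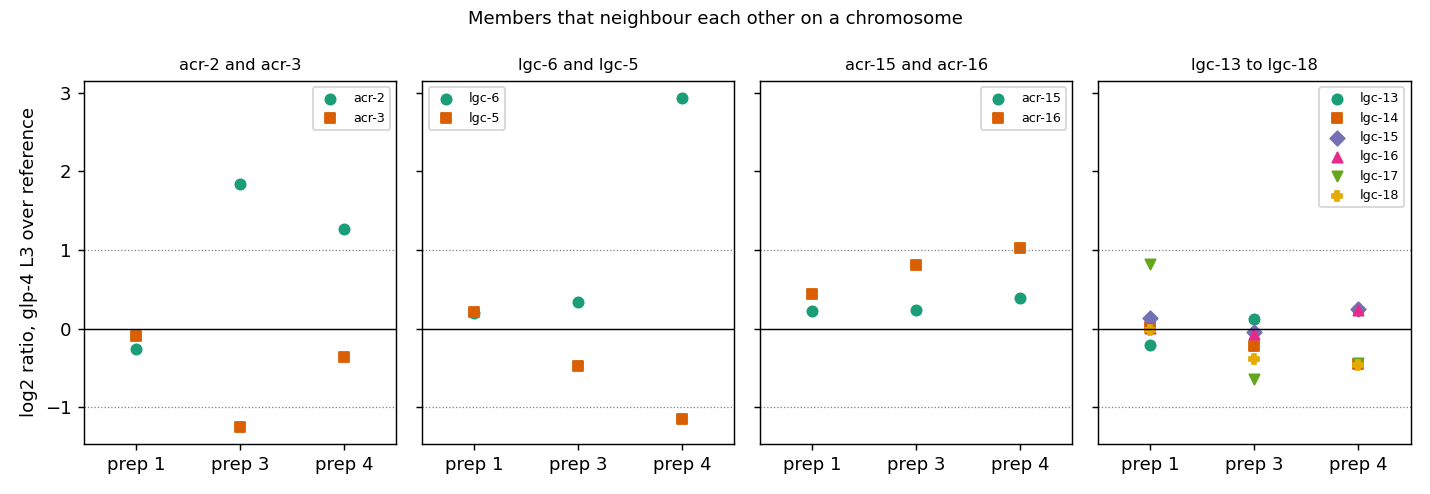
Log2 ratio of glp-4 L3 over the reference (vertical axis, array median at 0) with each prep (horizontal axis) for members that adjoin on a chromosome; each symbol is 1 gene and dotted lines mark a 2-fold change. The genes lgc-6 and lgc-5 lie together with prep 1 and 4.08 log2 units apart with prep 4, while lgc-16 and lgc-17 are already 0.81 apart with prep 1, lgc-17 the higher.

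The X chromosome held 22 of the 59 members (37.3%), against 14.9% of the named genes tested. Genes on X as a whole lay slightly above the reference, with a median of 0.20 for 2191 genes against 0.01 for 12431 genes on the autosomes. The shares that passed were close, 19.0% on X and 18.3% on the autosomes. On X 319 genes were higher and 97 lower, and on the autosomes 1089 and 1180. The members on X did not stand above the other members: their median was 0.09, and 1 of 22 passed. The 36 measured members on autosomes had a median of 0.14, and 0 passed. At an unadjusted limma p under 0.05, 2 of 22 on X and 5 of 36 on autosomes were higher, beside 17.1% of all features.

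Cys-loop channel genes with other names also lay near the reference. Of 20 measured genes, none was higher or lower, where 16.6% of all features passed. At an unadjusted limma p under 0.05, 1 was higher and 0 lower, beside 17.1% and 18.2% of all features. The median of the 20 genes was 0.04, their range -0.37 to 0.55, and 19 of 20 had an interval within 2-fold. The highest was unc-29 (T08G11.5), a subunit of the levamisole receptor of body wall muscle, at 0.26, 0.54 and 0.85 with preps 1, 3 and 4 (adjusted p = 0.107). It was higher without prep 1 (mean 0.70, limma adjusted p = 0.044), where 34.0% of all features passed. Its partner subunit genes lev-1, unc-38 and lev-8 had means of 0.28, 0 and 0.03. The lowest was acc-1, of the acetylcholine-gated chloride channels, at a mean of -0.37.

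Of 11 genes for the assembly, transport and clustering of these receptors, 1 was higher and none lower. Over all features, 8.26% were higher and 8.37% lower. At an unadjusted limma p under 0.05 the list held 2 higher genes and 1 lower, beside 17.1% and 18.2% of all features. The higher gene was nra-4 (C02E11.1), which encodes an endoplasmic reticulum protein that sets the subunit makeup of the muscle receptor. It was at 0.93, 1.23 and 1.39 with preps 1, 3 and 4, well above the reference each time (mean 1.18 ± 0.23, adjusted p = 0.013). Its partner nra-2 was at -0.14, 0.73 and 0.72, and the chaperone gene ric-3, needed to mature nicotinic receptors, at 0.17, 0.43 and 0.13. Neither passed. Of 21 genes for making, moving and degrading the ligands, 2 were higher and 1, tdc-1, was lower (14.3% against 16.6% of all features). Those higher were gta-1 (K04D7.3), the GABA transaminase gene, at 1.53 ± 0.20, and bas-1 (C05D2.4), the aromatic amino acid decarboxylase gene of dopamine and serotonin synthesis, at 1.28 ± 0.57. For acetylcholine, the synthesis gene cha-1 was at -0.23 ± 0.44 and the transporter gene cho-1 at 0.15 ± 0.32. The acetylcholinesterase genes ace-1 to ace-4 had means of 0.53, -0.99, -0.02 and -0.38, and no gene of this cholinergic set passed. Without prep 1 the assembly list held 3 higher genes and 0 lower, and the ligand list 2 higher and 4 lower. In that setting 16.3% of all features were higher and 17.6% lower. Without prep 3 or prep 4 the assembly list held none, and the ligand list held 1 lower and 0 or 1 higher. In those settings 1.96% and 6.30% of all features passed.

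**Figure D3:**
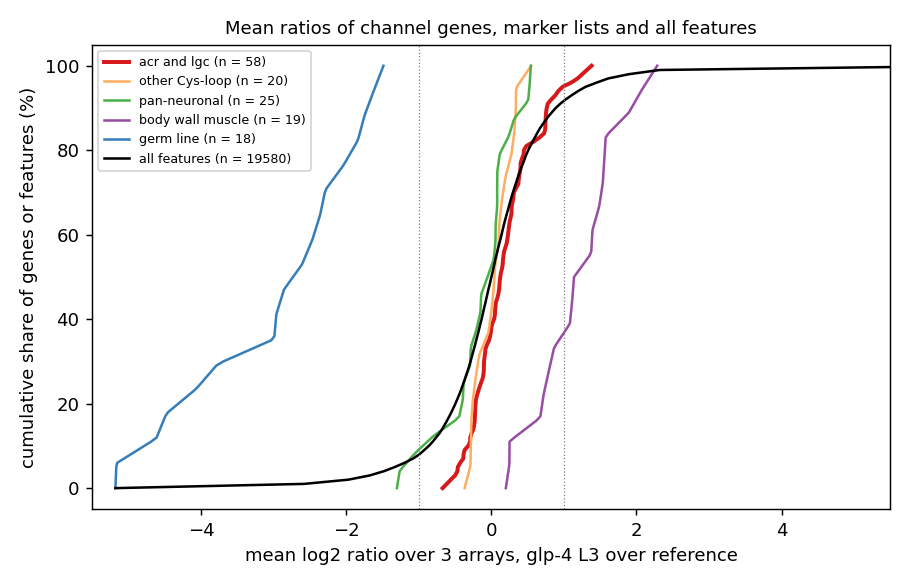
Cumulative share of genes or features (vertical axis, %) against the mean log2 ratio over 3 arrays (horizontal axis, glp-4 L3 over reference) for the acr and lgc genes, other Cys-loop channel genes, pan-neuronal, body wall muscle and germ line markers, and all features; dotted lines mark a 2-fold change. The acr and lgc curve runs from -0.67 to 1.38 around a median of 0.12, beside the pan-neuronal curve and between the germ line curve on the left and the muscle curve on the right.

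Markers of other tissues are set beside these values, and their part in them was not tested. All 18 germ line genes were lower, with a median of -2.73 and array medians from -2.95 to -2.62. Without prep 3, 11 were lower, and without prep 4, 17 were, where 1.96% and 6.30% of all features passed in either direction. Since such genes helped to set the sign of the ratio, the side they lie on supports nothing. Of 25 genes in the list called pan-neuronal here, 3 were lower and none higher (12.0% against 16.6% of all features). At an unadjusted limma p under 0.05 there were 3 higher and 4 lower, beside 17.1% and 18.2% of all features. The list median was -0.05, and the array medians ran from -0.25 to 0.03. Not all genes of the list are expressed in every neuron or in neurons alone. The 3 lower genes serve the processing of neuropeptides or the vesicles that carry them: egl-3 at -1.26 ± 0.37, ida-1 at -1.30 ± 0.30 and sbt-1 at -1.05 ± 0.31. Of 7 pharyngeal muscle genes none passed (median 0.49, array medians from -0.26 to 0.91). At an unadjusted limma p under 0.05, 1 of the 7 was higher, beside 17.1% of all features. Without prep 1 the pan-neuronal counts were 3 higher and 3 lower and the pharyngeal counts 4 and 1, where 16.3% and 17.6% of all features were. Without prep 3 or prep 4 no gene of these 2 lists passed, where 1.96% and 6.30% of all features did.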

How the data were processed

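Total RNA of glp-4 L3 preps 1, 3 and 4 was set against mixed wild-type reference RNA on 3 two-colour arrays, taken as replicates 1, 3 and 4 of 1 group. The authors deposited log2 ratios for 21632 probes. How the arrays were scanned, corrected and normalized is not given in the sources used here. That the deposited values are log2 was read from the numbers: on each array 100% of those below 0 were logarithms to base 2 of ratios rounded to thousandths (tolerance 0.01 thousandths). Values were obtained for 21462, 21379 and 21239 probes with preps 1, 3 and 4.

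The platform annotation gave 1 gene for 16450 probes, several for 247 and no gene for 4935. RefSeq (WBcel235) held 16360 of the single-gene probes by gene number and 8 by transcript accession. Array medians were subtracted, probes of a gene averaged per array, and the 19580 features with values on all 3 arrays tested against 0 with limma (version 3.58.1, R 4.3.3; lmFit, eBayes), two-sided, Benjamini-Hochberg adjusted, threshold 0.05. The reference has no spread of its own in this test. The procedure was tested on simulated data (20 runs, 200 changed features, 5.54% of calls false).

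The members and lists were chosen with earlier results of these data known. Members past the threshold or with fewer than 3 values were named by rule. So were the highest and lowest mean of each receptor group or number range. From the other lists, the rule took up to 6 genes past the threshold in the main direction and 3 in the other. Body wall muscle and germ line markers are given by counts, and members named for a known ligand or a neighbour were added after values were seen. Other members, and list genes that did not pass, were also named outside this rule. Array weights were an alternative added after seeing the data.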

Additional observations from a re-analysis of the deposited data

How the results depend on the processing

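Of the 58 tested acr and lgc genes, 1 was higher and 0 lower. The higher count was 3 with arrays brought to an equal median absolute deviation and 3 with quantile normalization (acr-16 and lgc-30 beside lgc-32). It was 2 with a robust variance prior, 0 with each probe tested alone, and 0 in limma's treat test against a 2-fold change. Of 19580 features, 3040, 3968, 3321, 3244 and 335 passed in these settings, in the order given, against 3255 in the main test. With 1 prep left out the higher member count ran from 0 to 8 and the lower count from 0 to 2. The highest counts came without prep 1, and without prep 3 or prep 4 both were 0. Over all features, 6675, 386 and 1248 passed without preps 1, 3 and 4. Array weights, added after seeing the data, gave 14 higher and 2 lower members while 41.4% of all features passed; the weights were 0.45, 2.68 and 0.82 for preps 1, 3 and 4. The count of other Cys-loop channel genes higher was 0, ran from 0 to 1 with a prep left out, and was 1 with array weights; the lower count was 0 throughout. The member median of 0.12 ran from 0.05 to 0.15 with a prep left out and from 0.07 to 0.12 under the other alternatives. No reported value with a test changed its direction past the threshold. Members by RefSeq symbol were the same genes. No paired analysis was possible because the 3 arrays form a single group. Scanner settings and a filter on dim probes were not run, since only ratios were used. The causes of these changes were not tested.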

Other observations

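The ionotropic glutamate receptor genes, a family of ligand-gated cation channels outside the Cys-loop superfamily, gave no call. Of 10 measured genes none passed in either direction (median 0.14, range -0.48 to 0.67), where 16.6% of all features did. At an unadjusted limma p under 0.05, 0 of the 10 were higher or lower, beside 17.1% and 18.2% of all features. The highest was glr-2, an AMPA type subunit gene of the command interneurons, at -0.05, 0.41 and 1.64 with preps 1, 3 and 4. The lowest was nmr-2, an NMDA type subunit gene, at 0, -0.34 and -1.11. As with lgc-6 and lgc-5, the most extreme value of each came with prep 4, the array with the widest spread over all features. Without prep 1, 1 gene of the family was higher, where 16.3% of all features were.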
